A study of Mus musculus with 4 samples.

Results

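The immediate early AP-1 and EGR genes are a small set of human genes that cells switch on quickly when a signal or a stress reaches them. The set followed here holds 10 of the 33538 human genes in the count tables, FOS, FOSB, JUN, JUNB, JUND, EGR1, ATF3, DUSP1, NR4A1 and IER2. They were chosen by name, and each was read in cell barcodes that had over 50% of their UMIs (unique molecular identifiers, 1 per counted transcript) on human genes. All 10 symbols matched a single human gene each.

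The cells were human CD45+ leukocytes sorted from huNSG-SGM3 mice, immunodeficient hosts that were irradiated as pups and engrafted with human cord blood stem cells. The hosts carried Prkdcscid and IL2rgtm1Wjl on the NOD.Cg background plus the transgene Tg(CMV-IL3,CSF2,KITLG)1Eav, in which a CMV promoter drives 3 human growth factor genes, and the labels give their age as 15 weeks. There were 4 droplet-based 3′ scRNAseq libraries, 1 for each condition: blood of naïve mice without surgery, blood of sham mice 7 days after a T9 laminectomy, and blood and spinal cord of mice 7 days after a T9 spinal cord injury (SCI). Naïve and sham hosts were male, whereas SCI hosts were a pool of males and females, so that host sex and injury cannot be told apart. Cells of several animals were pooled, and all libraries were sequenced together. Cord tissue was homogenised, digested warm with papain and DNase and enriched on magnetic beads before the sort, whereas blood had its red cells lysed and was not digested. Since the only cord library was digested and no blood library was, tissue and dissociation cannot be told apart in any comparison of cord with blood.

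Quality control kept 118 cells of the SCI cord library, beside 5940 from the blood of the same injury group, 4660 from sham and 6331 from naïve blood. Cells were assigned to classes from their marker genes, with "-like" marking a name given in this way. T-like cells pool 5 classes (CD4, Treg, CD8, cytotoxic memory and naïve T-like) and numbered 65 in SCI cord and 4211, 3679 and 4613 in naïve, sham and SCI blood. Levels are given as CPM, the summed counts of a gene over the cells of a class per 1e+06 human counts without ribosomal and mitochondrial genes. Each comparison set 1 library against 1 other, so no test between conditions was possible. Brackets after a level hold an exact 95% Poisson interval, and those after a log2 ratio an exact 95% binomial interval. Both cover counting error only and not the spread between animals or between cells. A gene was counted as past the limit when its log2 ratio was at least 1 (2-fold) with at least 20 counts over both libraries. The words higher and lower give the direction of a difference only, whatever its size.

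FOS, FOSB and the JUN proteins pair through leucine zippers to form AP-1, a transcription factor that binds promoters and enhancers of genes for activation, division and cytokine production. EGR1 is a zinc finger factor and NR4A1 an orphan nuclear receptor, both induced in lymphocytes by antigen receptor signalling, while ATF3 is a stress-induced bZIP factor. Most of these genes are transcribed within minutes of MAP kinase or calcium signalling and their transcripts are short-lived, although JUND is made more steadily. DUSP1, a phosphatase that switches MAP kinases off, is induced alongside them as feedback. Warm enzymatic digestion of solid tissue is a known trigger of the same genes, which is the reason to look at them in blood and in cord separately.

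In human cells of SCI cord, AP-1 genes and their feedback gene DUSP1 were far more abundant than in SCI blood. Over all cells, the 10 genes together reached 5943 CPM in SCI cord and 2332 CPM in SCI blood, a log2 ratio of 1.35 (1.31 to 1.39). JUND alone contributed 50.6% of those counts in SCI blood but 25.7% in SCI cord, and without JUND the log2 ratio was 1.94 (1.90 to 1.99). Of the 10 genes, 8 had a log2 ratio of at least 1, all but JUND and IER2, beside 13.8% of the 13399 genes measured. Cord and blood held different mixtures of classes (for example 12.7% against 2.26% basophil or mast-like cells), so the genes are described below within T-like cells first.

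Within T-like cells, 7 of the 9 member genes with enough counts had a log2 ratio of at least 1 in SCI cord against SCI blood, beside 11.6% of the 12074 genes measured. None of them had a log2 ratio of −1 or lower, beside 7.29% of all genes. Their median log2 ratio was 1.99, whereas the median over all measured genes was 0.04 and the 90th percentile 1.11.

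FOS, the inducible partner of JUN in AP-1, was at 32.5 CPM in T-like cells of naïve blood (29.3 to 35.9), 61.0 in sham blood (57.0 to 65.1), 123 in SCI blood (118 to 129) and 964 in SCI cord (870 to 1065). Cord stood apart from the 3 blood libraries, whose levels also differed from each other beyond counting error. The log2 ratio of cord to SCI blood was 2.97 (2.81 to 3.13), a 7.84-fold difference. FOSB, its close relative, was at 20.0, 31.5 and 47.9 CPM in naïve, sham and SCI blood and at 177 CPM in cord (138 to 224), with a log2 ratio of 1.90 (1.51 to 2.24). For both genes the order of the 4 libraries was the same, with naïve blood lowest and SCI cord highest.

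Among the JUN genes, JUN itself was at 101, 194 and 241 CPM in T-like cells of naïve, sham and SCI blood and at 644 CPM (568 to 728) in SCI cord, a log2 ratio to SCI blood of 1.42 (1.23 to 1.60). JUNB, a family member induced by cytokines and T cell activation, was at 187, 232 and 233 CPM in the blood libraries and at 924 CPM (832 to 1023) in cord. Its log2 ratio was 1.99 (1.83 to 2.14), and sham and SCI blood were alike within counting error. JUND varied less, with 1122, 1219 and 1141 CPM in blood and 1875 CPM (1743 to 2014) in cord. At 0.72 (0.61 to 0.82), its log2 ratio was positive but within the 10th to 90th percentile of all genes (−0.82 to 1.11).

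DUSP1, the MAP kinase phosphatase, was at 55.0, 69.9 and 85.2 CPM in naïve, sham and SCI blood T-like cells and at 394 CPM (335 to 461) in cord, a log2 ratio of 2.22 (1.96 to 2.45). Again the naïve library was lowest and cord highest. IER2, a small nuclear protein among the immediate early genes, was nearly level over blood at 367, 380 and 374 CPM. In cord it reached 492 CPM (426 to 566), and its log2 ratio of 0.40 (0.18 to 0.60) was the smallest of the members measured.

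**Figure D1:**
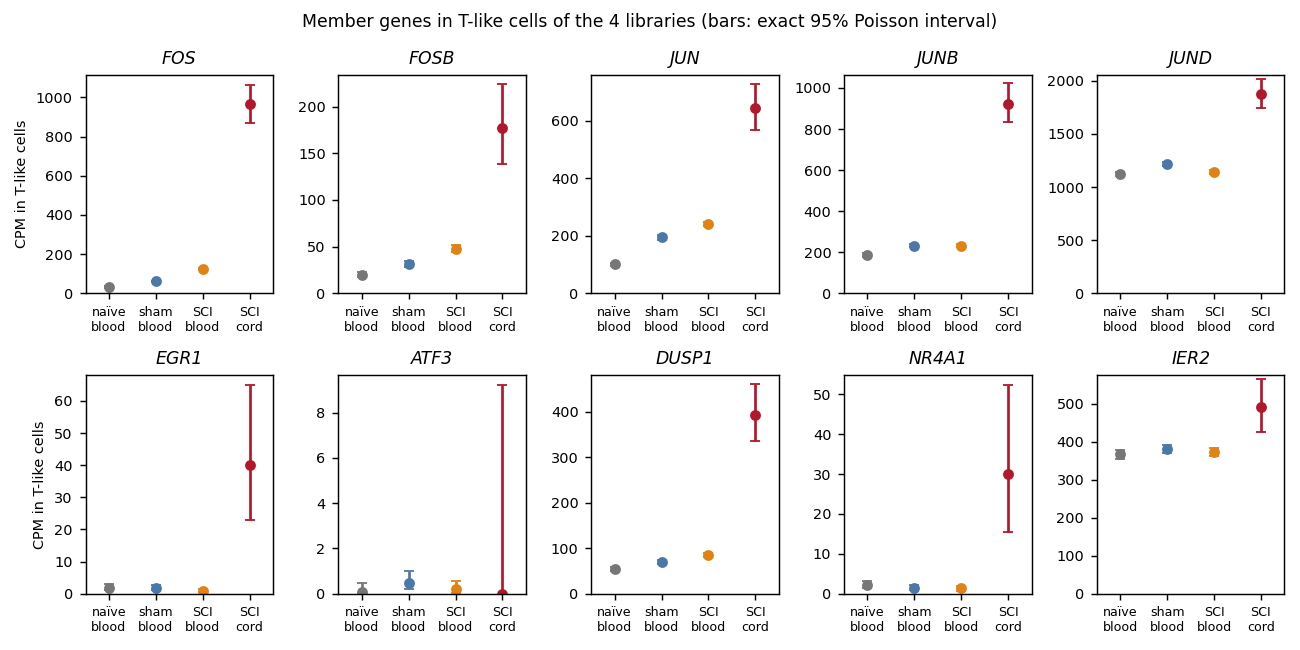
CPM of each of the 10 genes in T-like cells of the 4 libraries, on linear axes that start at 0 and differ between genes; points are the level in 1 library and bars its exact 95% Poisson interval. FOS lies at 32.5, 61.0, 123 and 964 CPM from left to right, whereas JUND lies between 1122 and 1219 CPM in blood and at 1875 CPM in cord.

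EGR1, NR4A1 and ATF3 were near the limit of detection in blood T-like cells. EGR1 had 22, 27 and 13 counts in naïve, sham and SCI blood (1.90, 1.87 and 0.846 CPM) and 16 counts in cord (39.9 CPM, 22.8 to 64.9). The 16 counts came from 5 of 65 cells, with 6 counts in the highest cell. Their log2 ratio of 5.55 (4.41 to 6.74) therefore rests on few cells.

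NR4A1 had 24, 21 and 20 counts in the blood libraries (2.08, 1.45 and 1.30 CPM) and 12 in cord (30 CPM, 15.5 to 52.3), a log2 ratio of 4.55 (3.36 to 5.63). A human NR4A1 UMI was found in 15.4% of cord T-like cells (7.63 to 26.5%) and in 8.60% of the mouse barcodes of the same library (3.79 to 16.2%), and these intervals overlap. With each cell reduced to 1000 UMIs, no cord T-like cell of 65 held NR4A1, which allows a share of up to 4.62%. With 12 counts at full depth, the thinned share cannot decide whether the cells held NR4A1. Shares of cells therefore did not set cord T-like cells apart from mouse barcodes for this gene. The mouse barcodes held 8 human NR4A1 counts among 11143 human UMIs (without ribosomal and mitochondrial genes), beside 77 among 1060818 in all kept cord cells. Where the counts in mouse barcodes came from was not tested. ATF3 had 1, 7 and 3 counts in blood and none in the 65 cord T-like cells, which allows up to 7.49 CPM, so that no difference was detectable at this depth.

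Free human RNA in the droplets was read from the mouse barcodes, which should hold no human transcripts. In SCI cord, 3 of 93 mouse barcodes held a human FOS UMI (3.23%, 0.670 to 9.14%), 4.30% held JUN, 7.53% held JUNB and 5.38% held DUSP1. The corresponding shares of cord T-like cells were 72.3%, 73.8%, 80.0% and 67.7%. Mouse barcodes had a median of 26590 UMIs, nearly all of them mouse, and together held 11143 human UMIs without ribosomal and mitochondrial genes, while cord T-like cells had a median of 7697 human UMIs. Within those human UMIs of mouse barcodes, the 10 genes summed to 67 counts (6013 CPM), beside 5943 CPM over all kept cord cells. Single genes did not follow the sum. FOS had 6 counts and NR4A1 had 8 in mouse barcodes, whereas the kept cells held 1441 and 77.

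Cord T-like cells were sequenced more deeply than those of SCI blood (median 7697 against 4556 human UMIs), so shares of cells were also taken with every cell reduced to 1000 UMIs. FOS was then detected in 30.8% of cord T-like cells (19.9 to 43.4%) and 7.20% of SCI blood T-like cells (6.47 to 7.98%). JUN was detected in 30.8% (19.9 to 43.4%) against 15.4% (14.4 to 16.5%) and JUNB in 29.2% (18.6 to 41.8%) against 15.2% (14.2 to 16.3%). DUSP1 was detected in 18.5% (9.92 to 30%) against 5.70% (5.05 to 6.41%). IER2 was detected in 26.2% (16.0 to 38.5%) against 22.6% (21.4 to 23.8%). Such shares were not taken over all genes, so these values describe the named genes only. Their intervals do not cover the spread between animals.

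**Figure D2:**
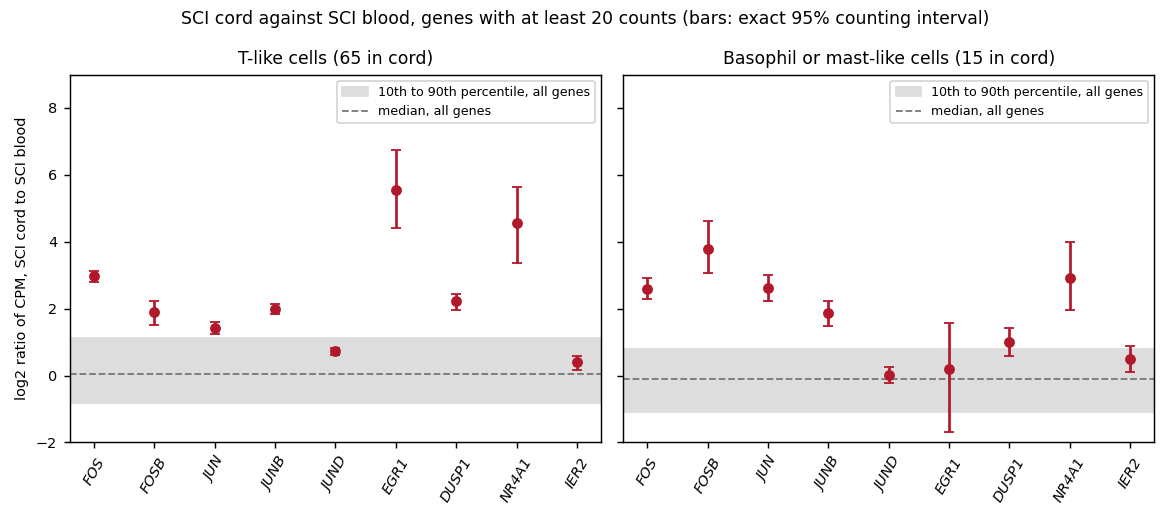
Log2 ratio of CPM in SCI cord to SCI blood for the 9 genes with at least 20 counts, in T-like cells (left) and basophil or mast-like cells (right); points are the ratio of 2 libraries, bars its exact 95% counting interval, the grey band the 10th to 90th percentile over all measured genes and the dashed line their median. In T-like cells 7 genes lie above the band, with JUND (0.72) and IER2 (0.40) inside it.

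The cord signal was spread unevenly over cells. The median cord T-like cell held 2 FOS UMIs, against 0 in each blood library, while the highest held 57. The 7 cells with most FOS held 50.8% of all FOS UMIs of cord T-like cells. At 1000 UMIs per cell, 35.4% of cord T-like cells held at least 3 of the 10 genes, compared with 5.30%, 7.80% and 8.56% in naïve, sham and SCI blood. At least 5 of them were found in 3 of 65 cord cells (4.62%) and in 9 of 4613 SCI blood cells (0.195%). No member was found in 10.8% of cord and 23.6% of SCI blood T-like cells. JUN was detected in 7 of the 20 cord T-like cells with FOS (35.0%) and in 28.9% of the 45 without.

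**Figure D3:**
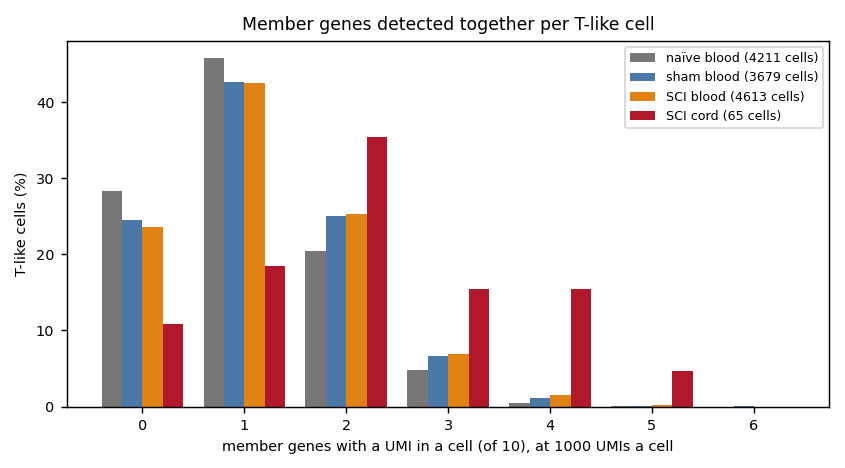
Share of T-like cells (%) by the number of the 10 genes with at least 1 UMI, with each cell reduced to 1000 UMIs, in the 4 libraries. The blood libraries peak at 1 gene (42.5% to 45.8% of cells) and SCI cord at 2 genes (35.4%), with 35.4% of cord cells at 3 or more.

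The 4 T-like classes with at least 10 cells in cord were next compared with the same class of SCI blood. FOS and JUNB were higher in cord in all 4, as was FOSB. FOS was at 2309 against 238 CPM in CD8 T-like cells, the class with most FOS in cord, and was present in all 10 of them. Treg-like cells had the lowest FOS level of the T-like classes of SCI blood (33.7 CPM) and 1062 CPM in cord, a log2 ratio of 4.97 (4.57 to 5.40), with 57 of their 130 cord counts in 1 cell. In CD4 T-like cells FOS was at 648 against 54.1 CPM (3.59, 3.25 to 3.91), and in cytotoxic memory T-like cells at 311 against 78.2 CPM (2.04, 1.11 to 2.77). JUNB ratios ran from 1.41 in cytotoxic memory T-like to 2.63 in CD8 T-like cells, and FOSB ratios from 1.74 in CD4 T-like to 2.69 in Treg-like cells. The class shares were 22.9% CD4, 14.4% Treg, 8.47% CD8 and 8.47% cytotoxic memory T-like cells of all cord cells.

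Other members also differed between the T-like classes. JUN was higher in cord, with its interval above 0, in all 4. JUN had its highest ratio in CD4 T-like cells (754 against 155 CPM, 2.28, 1.99 to 2.56) and its lowest in CD8 T-like cells (590 against 357 CPM, 0.75, 0.20 to 1.21). DUSP1 ran from 0.70 in cytotoxic memory T-like cells (−0.88 to 1.75) to 2.86 in CD8 T-like cells (2.32 to 3.33). JUND was within counting error of SCI blood in CD4 T-like cells (0.16, −0.03 to 0.34) and highest in cytotoxic memory T-like cells (1.49, 1.21 to 1.75). IER2 had an interval above 0 only in cytotoxic memory T-like cells (1.34, 0.86 to 1.75), where 34 of 47 counts came from 1 of 10 cells. Of the 16 EGR1 counts, 8 lay in Treg-like and 6 in a single cytotoxic memory T-like cell. None of these differences between classes was tested.

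Markers of other cell types were also measured in the T-like cells. In cord, the 8 basophil or mast cell markers were all detected and summed to 277 CPM, against 2.60 CPM in SCI blood (2.42 to 3.25 CPM over the 3 blood libraries). The 9 NK markers summed to 627 CPM with 5 of them at 0, against 42.2 to 122 CPM in blood. For 10 monocyte markers the sum was 30 CPM with 5 at 0, against 12.6 to 23.8 CPM in blood, and for 10 B cell markers it was 145 CPM with 5 at 0, MS4A1 among them, against 121 to 135 CPM. For 8 eosinophil markers it was 37.4 against 6.90 to 10.4 CPM. All 8 neutrophil markers were at 0 in cord T-like cells. The 6 markers of naïve T cells summed to 1211 CPM in cord and 2086 to 2331 CPM in blood. Of the 65 cells, 1 Treg-like cell was called a doublet by Scrublet at its automatic threshold. Without it the basophil or mast cell markers were at 0 CPM and the eosinophil markers at 7.74 CPM, while the NK markers stayed at 609 CPM. The log2 ratio of FOS was then 2.89, and 7 genes again had a log2 ratio of at least 1. The part of NK cells in the member genes' levels was not tested.

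Basophil or mast-like cells, which led on HDC, MS4A2 and CPA3, were the only class outside the T-like cells with at least 10 cells in both SCI libraries and enough counts for most members (15 in cord and 134 in blood). Here 6 of 9 genes had a log2 ratio of at least 1, beside 6.07% of the 4941 genes measured, and the median of the 9 was 1.87 against −0.10 for all genes. FOS was at 139, 206 and 286 CPM in naïve, sham and SCI blood and at 1738 CPM (1520 to 1980) in cord, a log2 ratio to SCI blood of 2.60 (2.30 to 2.92). FOSB had the highest ratio, with 18.3, 56.1 and 38.0 CPM in blood and 536 CPM (418 to 677) in cord (3.79, 3.07 to 4.63). The 2 cells with most FOS held 44.9% of the FOS counts.

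JUN in basophil or mast-like cells was at 58.5, 152 and 182 CPM in blood and 1118 CPM in cord (2.62, 2.23 to 3.01), and JUNB at 132, 170 and 246 CPM in blood and 896 CPM in cord (1.87, 1.49 to 2.24). NR4A1 had 28 counts in cord against 14 in SCI blood (214 against 28.0 CPM, 2.91, 1.96 to 3.98). DUSP1 was at 590 against 294 CPM, just past the limit of 1 (1.01, 0.59 to 1.41). In contrast to T-like cells, EGR1 was at 38.3 against 36.0 CPM (0.19, −1.69 to 1.57) and JUND at 1463 against 1432 CPM (0.03, −0.21 to 0.26), so that neither differed beyond counting error. ATF3 had 4 counts in 4 of the 15 cord cells and 0 in the 134 cells of SCI blood.

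The remaining cord classes were too small for a ratio and are given as levels. In 9 monocyte-like cells FOS was at 2709 CPM (2471 to 2965), the highest of the cord classes with at least 6 cells, beside 1512 CPM (1335 to 1705) in the 18 monocyte-like cells of SCI blood. DUSP1 was at 1132 CPM (980 to 1301) against 747 CPM (625 to 887) in the same cells, while JUNB was at 1029 against 1244 CPM with overlapping intervals. The 9 cord cells had FOSB at 680 against 285 CPM and JUN at 652 against 228 CPM. IER2 (354 against 884 CPM) and EGR1 (28.6 against 177 CPM, 5 against 31 counts) went the other way in them. These cells also held 13 of the 21 ATF3 counts of the cord, 9 of them in 1 cell. In 13 eosinophil-like cells, FOS was at 1223 CPM and EGR1 at 134 CPM (78.2 to 215), whereas SCI blood had 6 such cells. FOS lay at 710 CPM in 7 B-like cells and at 616 CPM in 6 cycling-like cells, where 58 of 78 counts came from 1 cell. Scrublet's automatic threshold called 6 further cord cells doublets, none of them basophil or mast-like or NK-like. Without these, FOS was at 3607 CPM in monocyte-like, 983 CPM in eosinophil-like, 738 CPM in B-like and 219 CPM in cycling-like cells, and DUSP1 at 1623 CPM in monocyte-like cells. Some other members lost most of their level. In B-like cells JUN went from 726 to 195 CPM (529 CPM in SCI blood) and DUSP1 from 521 to 130 CPM (105 CPM in SCI blood). Cycling-like FOSB went from 277 to 32.8 CPM and eosinophil-like DUSP1 from 821 to 497 CPM, whereas monocyte-like JUN rose from 652 to 958 CPM. The 2 NK-like cells of cord held 222 counts of the 10 genes, a level of 17761 CPM. They therefore weigh on any class they are placed in.

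In blood, where no tissue was digested, T-like cells of the operated mice had more FOS, FOSB, JUN and DUSP1 than those of naïve mice. Sham and SCI blood were set against the same naïve library, so these 2 comparisons share their control. The naïve library also stood apart in its mouse barcodes, in which mouse Fos was at 17.7 CPM against 1156 in sham and 1022 in SCI blood, Junb at 38.3 against 1633 and 1627 CPM and Dusp1 at 18.8 against 1002 and 1030 CPM. With 1 naïve library, what belongs to that library and what belongs to the operation cannot be told apart. In sham against naïve blood, none of the 9 measured genes reached a log2 ratio of 1, beside 1.05% of the 12884 genes measured. The nearest were JUN (0.94, 0.84 to 1.04) and FOS (0.91, 0.73 to 1.09), followed by FOSB (0.65, 0.42 to 0.89), DUSP1 (0.34, 0.20 to 0.49) and JUNB (0.31, 0.23 to 0.39). JUND differed by 0.12 (0.09 to 0.15), and the interval of IER2 held 0 (0.05, −0.01 to 0.11). FOS, FOSB, JUN, JUNB and DUSP1 were above the 90th percentile of all genes (0.27). In each of the 5 T-like classes FOS, JUN, JUNB and DUSP1 were higher in sham than in naïve blood, with ratios of 0.41 to 1.14 for FOS and 0.50 to 1.32 for JUN. In naïve T-like cells the intervals of FOS, JUNB and DUSP1 held 0, as did that of DUSP1 in cytotoxic memory T-like cells. Sham T-like cells were deeper than naïve ones (median 5050 against 3518 human UMIs), and with each cell reduced to 1000 UMIs FOS came to 0.50 and JUNB to 0.18. EGR1 (−0.03, −0.90 to 0.85) and NR4A1 (−0.51, −1.43 to 0.39) had wide intervals.

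SCI against naïve blood gave 3 genes past a log2 ratio of 1 in T-like cells, beside 2.37% of the 13010 genes measured. These were FOS (1.92, 1.76 to 2.09), FOSB (1.26, 1.05 to 1.48) and JUN (1.25, 1.16 to 1.35). DUSP1 was at 0.63 (0.49 to 0.77) and JUNB at 0.32 (0.24 to 0.40), whereas JUND (0.02, −0.01 to 0.06) and IER2 (0.02, −0.03 to 0.08) did not differ beyond counting error. EGR1, with 13 against 22 counts, was at −1.15 (−2.28 to −0.12). After thinning it was at −0.03, but few of so few counts are left at that depth. The thinned value cannot decide whether EGR1 differed. FOS ran from 0.94 in Treg-like to 2.24 in cytotoxic memory T-like cells, and its interval was above 0 in all 5 T-like classes. With the classes given equal weights in both libraries, FOS was at 1.33 and JUN at 0.98.

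SCI and sham blood were closer to each other. FOS was the 1 gene with a log2 ratio of at least 1 (1.01, 0.90 to 1.13), beside 2.26% of the 13169 genes measured. At equal class weights FOS was at 0.62, short of that limit. SCI blood had more CD8 T-like cells (24.0% against 13.1% of all cells) and more naïve T-like cells (9.95% against 2.79%), the T-like classes with most FOS. Within classes FOS differed by 0.25 (CD4 T-like, 0.02 to 0.49) to 1.36 (cytotoxic memory T-like, 0.85 to 1.92), and for Treg-like cells its interval held 0 (0.40, −0.04 to 0.84). FOSB (0.61), JUN (0.32) and DUSP1 (0.29) were higher in SCI blood. At equal class weights FOSB came to 0.32 and JUN to 0.21, and DUSP1 came to 0.08 after thinning. FOSB was higher beyond its interval in 2 of the 5 T-like classes, JUN in 3 and DUSP1 in 3. JUND was lower (−0.10, −0.13 to −0.07), but in 1 of the 5 classes beyond its interval, and at 0.00 with equal class weights. JUNB (0.01, −0.06 to 0.08) and IER2 (−0.03, −0.08 to 0.03) did not differ beyond counting error. EGR1 was lower in SCI blood (−1.11, −2.22 to −0.14), a value that rests on 13 against 27 counts. The share of all genes at −1 or lower was not counted for these libraries. NR4A1, with 20 against 21 counts, was at −0.15 (−1.12 to 0.80). The median of the 9 genes was 0.01, as it was for all genes.

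Across the cell classes of blood, monocyte-like cells had the highest mean level for 6 of the 10 genes (FOS, FOSB, JUNB, EGR1, DUSP1 and NR4A1). The share of all genes with their highest mean in these cells was not counted, so the 6 describes the members only. Their FOS was at 219, 511 and 1512 CPM in naïve, sham and SCI blood, a mean of 747 ± 678 (SD, n = 3 libraries), the SD being nearly as large as the mean. The 3 libraries are 3 conditions and not replicates, so each SD and range over them also holds differences between conditions. The number of monocyte-like cells was 143, 99 and 18 in naïve, sham and SCI blood. Next came NK-like (213 ± 126 CPM, 18 to 28 cells) and basophil or mast-like cells (210 ± 73.5 CPM), then CD8 T-like (171 ± 70.1 CPM) and naïve T-like cells (143 ± 63.0 CPM). B-like cells (72.5 ± 23.0 CPM) came before cytotoxic memory (41.6 ± 32.4 CPM) and CD4 T-like cells (40.0 ± 17.4 CPM), and cycling-like (27.4 ± 6.01 CPM) and Treg-like cells (25.6 ± 8.12 CPM) were lowest. For every pair of neighbours in this order the ranges over the 3 libraries overlapped. CD8 T-like cells were nevertheless above naïve T-like cells, and these above B-like cells, in each of the 3 libraries.

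**Figure D4:**
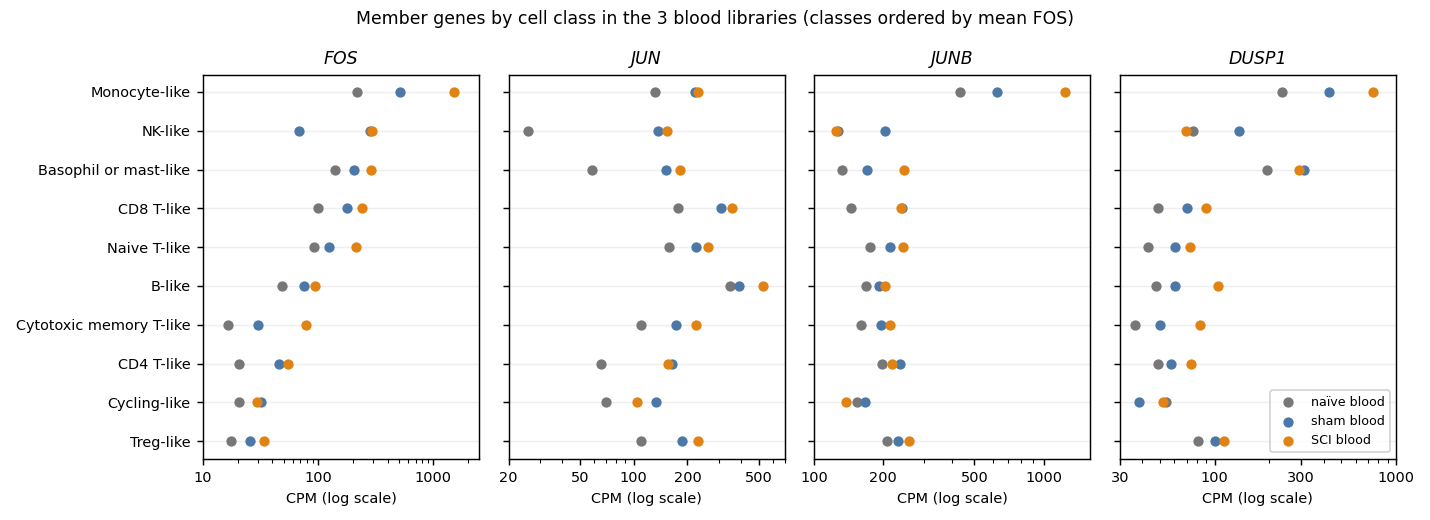
CPM (log axes) of FOS, JUN, JUNB and DUSP1 by cell class in the 3 blood libraries; a point is 1 class in 1 library, and classes are ordered by their mean FOS level. Monocyte-like cells lie furthest to the right for JUNB and DUSP1 in all 3 libraries and for FOS in sham and SCI blood (in naïve blood, NK-like cells at 280 CPM lie beyond their 219 CPM), and B-like cells (344 to 529 CPM) for JUN.

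JUN had another order, led by B-like cells at 344, 386 and 529 CPM (420 ± 96.9), above CD8 T-like cells (281 ± 92.6 CPM) in each library. JUNB was at 767 ± 424 CPM in monocyte-like cells, and its lowest monocyte level (433 CPM) was above the highest of Treg-like cells (260 CPM), the next class. DUSP1 was at 470 ± 259 CPM in monocyte-like and 266 ± 63.4 CPM in basophil or mast-like cells, and the latter did not overlap with the third, Treg-like cells (97.9 ± 15.7 CPM). JUND ranged only from 857 ± 74.3 CPM in CD8 T-like to 1411 ± 50.1 CPM in CD4 T-like cells, and IER2 from 267 ± 9.79 CPM in cycling-like to 642 ± 106 CPM in NK-like cells (20, 18 and 28 cells).

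The rarer genes EGR1 and NR4A1 had their highest mean in monocyte-like cells, followed by basophil or mast-like cells. EGR1 was at 8.66, 17.7 and 177 CPM in monocyte-like cells, the last from 31 counts in 18 cells, at 0, 16.3 and 36.0 CPM in basophil or mast-like cells and at 4.25 to 6.57 CPM in B-like cells. NR4A1 was at 23.5, 10.8 and 28.5 CPM in monocyte-like and at 7.31, 12.7 and 28.0 CPM in basophil or mast-like cells. In B-like cells, the third by mean, it was at 6.93, 18.3 and 15.8 CPM, higher in sham than in naïve blood (1.39, 0.65 to 2.17). ATF3 stayed at or below 5.27 CPM in each class of the 3 blood libraries that was ranked. Plasma-like cells, found in numbers in naïve blood only (385 cells), had 79 ATF3 counts (18.0 CPM), of which 46 lay in 1 cell. They also had JUN at 461 CPM, detected in 89.1% of them, and less DUSP1 (17.6 CPM) than any of the 10 ranked classes of naïve blood.

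Other genes of the pathway were read as 5 lists in T-like cells of SCI cord against SCI blood. Over all genes measured there, 11.6% had a log2 ratio of at least 1 and 7.29% of −1 or lower, the shares to set beside each list. Of 28 other immediate early genes and feedback regulators, 27 were measured, 14 had a log2 ratio of at least 1 and 1 of −1 or lower, with a median of 1.02. RGS1, a G protein regulator of activated lymphocytes, was at 285 against 15.4 CPM (4.21), the phosphatase gene DUSP2 at 335 against 35.0 CPM (3.26) and the activation marker CD69 at 439 against 61.9 CPM (2.83). NFKBIA, the NF-κB inhibitor, was level (0.05, −0.32 to 0.38) and MYC lower (57.4 against 130 CPM, −1.15). Among 10 other EGR, NR4A and KLF factors, 5 were measured, and NR4A2 was the 1 past the limit, at 117 against 3.71 CPM (4.99, 4.39 to 5.57). KLF2, a factor of quiescent and circulating T cells, was at 1091 against 2166 CPM (−0.99, −1.13 to −0.85), and KLF6 was also lower (−0.61, −0.77 to −0.45).

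The other AP-1 and bZIP factors moved less, with a median of 0.39. Of 15 measured, 4 were at 1 or more (11.6% of all genes) and 1 at −1 or lower (7.29% of all genes). FOSL2 (37.4 against 11.9 CPM, 1.70), MAFG (1.60) and MAF (1.12) were the highest with at least 100 counts. Of fewer counts, and named after their values were seen, were BATF3 (4 against 16 counts, 3.39) and MAFF (0 against 60 counts). BACH2, a repressor that competes for AP-1 sites, was at 27.5 against 50.1 CPM, a log2 ratio of −0.80 (−1.87 to −0.02). Upstream kinases and factors had a median of −0.08 over 21 genes, 1 past the limit in each direction. These were CREM, a cAMP-responsive factor (150 against 30.8 CPM, 2.29), and MAP3K1 (117 against 271 CPM, −1.19). Heat shock genes are another group that warm digestion of tissue is known to raise. Of 16 measured, DNAJB4 reached a log2 ratio of 1 with 6 cord counts (1.08, −0.50 to 2.14) and none −1, and their median was −0.10. HSPA8 was at 1236 against 1821 CPM (−0.56, −0.69 to −0.43), DNAJB1 at 72.4 against 89.9 CPM (−0.29, −0.90 to 0.22) and HSPB1 at 207 against 119 CPM (0.81, 0.46 to 1.11).

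In basophil or mast-like cells, 9 of 21 measured immediate early and feedback genes had a log2 ratio of at least 1 and 1 of −1 or lower, with a median of 0.29. Of all genes measured in these cells, 6.07% had a log2 ratio of at least 1 and 12.2% of −1 or lower. RGS1 was at 176 against 7.99 CPM (4.32), NR4A2 at 161 against 9.99 CPM (3.91) and CD69 at 1470 against 469 CPM (1.65), with KLF2 lower (827 against 1964 CPM, −1.24). For the other AP-1 and bZIP factors it was 0 and 2 of 10, for EGR, NR4A and KLF factors 1 and 2 of 5, and for upstream genes 1 and 3 of 12. NFKBIA, level in T-like cells, was at 1210 against 242 CPM here (2.32, 1.97 to 2.68). None of the 14 heat shock genes measured reached a log2 ratio of 1 in either direction, and their median was −0.24.

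The genes outside these lists whose pattern was most like the mean of the 10 genes were found over 27 sums of 1 class in 1 blood library. MFSD1 (Pearson r 0.84), OSBPL11 (0.83), ARAP1 (0.83) and LRRC25 (0.82) came first. EGR1, ATF3 and NR4A1, with a mean under 10 CPM, were given no r in blood. Of the other members, DUSP1 (0.78) and FOS (0.72) followed that mean most closely and IER2 (0.37) least. With cord classes added (33 sums), they were AC020916.1 (0.86), SLFN12 (0.79), PRKAR1A (0.79) and GRINA (0.76), with FOSB (0.92) and JUNB (0.88) the closest members. The sums share libraries, depth and cell classes, so these values only describe the data. Each member is also part of the mean it was set against, which raises its own r.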

How the data were processed

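The authors sorted human CD45+ cells, made droplet-based 3′ libraries and mapped the reads with Cell Ranger 3.1.0 to a combined reference (hg38 and mm10 per the labels, 33538 human and 31053 mouse genes). They deposited UMI counts per gene and barcode without normalisation, for 4 libraries of 231 to 8124 barcodes. The member genes and the lists were chosen with earlier results of these data known.

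Human barcodes (over 50% human UMIs) were dropped when, against their own library's median, log UMIs or log genes were lower by 3 MADs, or the mitochondrial or ribosomal percent was higher by as much. Scrublet marked 0.8% per 1000 barcodes as doublets, and marked barcodes with over 3000 genes were removed (none in cord, where this rate marks none of 138 human barcodes). Scrublet's automatic threshold called 10 doublets in cord, of which 7 were among the kept cells, and 0, 4 and 192 in naïve, sham and SCI blood. Clusters (2000 variable genes without the members and early-gene lists, scaled within library, 30 components, 15 neighbours, Leiden resolution 0.8) were named from marker lists, giving 14 clusters. A B-like cluster of 308 cells had 37.3% of its cells marked as doublets. Between libraries, 21 barcode sequences were shared. Kept cells held 1430777 human UMIs in cord and 27925293 to 31281216 in blood, a median per cell of 9331 in cord and of 3699 (naïve) to 5234 (sham) in blood.

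Log2 ratios were taken with 0.5 counts added. Intervals were exact, at 95%. A count of 0 allows up to 3 counts. Of the other genes, those with at least 100 counts over both SCI libraries that were among the 3 highest or 3 lowest of their list in T-like cells are named. With 1 library per condition no p-value is given. Of 24 upstream genes, 22 were read here. The script was tested on simulated data. Clustering used scanpy 1.11.5 with igraph 0.11.9 and scikit-learn 1.9.0. Intervals came from scipy 1.17.1, run in Python 3.11.15 with numpy 2.4.6, tables from pandas 2.3.3 and plots from matplotlib 3.10.9, with edgeR 4.0.16 (R 4.3.3) for TMM factors only. Alternatives changed the human cut, filters, clustering, scaling, added counts, depth and class weights. Those without JUND, without shared barcodes, without automatic doublet calls and with under 2% mouse UMIs were chosen after seeing the data.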

Additional observations from a re-analysis of the deposited data

Results flagged for a closer look

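Some genes differed between the same 2 blood libraries in opposite directions in different classes, each beyond counting error, although the difference between classes was not tested. In cycling-like cells DUSP1 was lower in sham than in naïve blood (log2 ratio −0.50), whereas it was higher in 6 other classes. JUN (−0.35) and JUNB (−0.27) were lower in SCI than in sham blood in cycling-like cells but higher in 4 and 3 other classes. JUND was slightly lower in SCI than in sham blood in CD4 T-like cells (−0.06) and higher in basophil or mast-like and monocyte-like cells.

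The mouse copies of the genes, in mouse barcodes that the report used only for free human RNA, were read as data outside the comparisons. Against SCI blood, mouse Fosb (log2 ratio 2.32), Jun (2.86), Egr1 (0.71) and Atf3 (3.46) were higher in the 93 mouse barcodes of cord, whereas Fos (−0.21), Junb (−0.82), Jund (−1.08), Dusp1 (−1.80), Nr4a1 (−1.16) and Ier2 (−0.41) were lower. Host cells of cord and blood were not divided into cell types here, and mouse barcodes of naïve blood had lower levels than those of sham blood (Egr1 at 1.06 against 154 CPM, Jun at 2.84 against 120 CPM, and Fos, Junb and Dusp1 as given above). The part of cell types in these differences was not tested.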

How the results depend on the processing

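The number of member genes past a log2 ratio of 1 in cord T-like cells was 7 to 8 under 17 alternatives, and the number of genes highest in monocyte-like cells, 6, was 7 under each of 7 alternatives. In those 7, the 2 NK-like cells of cord were placed among T-like cells and no NK-like class was left. For T-like cells the log2 ratio of the summed genes, 1.30, became 1.40 (at least 90% human UMIs, resolution 0.4, or early genes in clustering), 1.39 (all marked doublets removed, or resolution 1.5) and 1.38 (no MAD filter). It was 1.19 with TMM factors, 1.20 after thinning, 1.47 at equal class weights and 1.73 without JUND. Over all cells, 1.35 became 1.45 with CPM over all human genes, 1.29 with the mean of per-cell CPM, 1.28 with TMM factors, 1.22 after thinning, 1.42 at equal class weights and 1.94 without JUND. In blood T-like cells the sum for sham against naïve (0.21) became 0.25 with TMM factors and 0.34 without JUND. For SCI against naïve (0.25) it became 0.15 with CPM over all human genes, 0.28 with TMM factors, 0.29 after thinning, 0.31 at equal class weights and 0.53 without JUND. For SCI against sham (0.04) it reversed to −0.06 with CPM over all human genes, and became 0.08 after thinning and at equal class weights and 0.19 without JUND. Ribosomal genes took a median of 23.4% of UMIs in T-like cells of SCI blood and 17.8% in sham blood. JUND for SCI against sham (−0.10) came to 0.00 at equal class weights. The cause of these shifts was not tested. For single genes in cord against SCI blood, 125 of 144 values stayed within the counting interval and none reversed. Among those that moved, DUSP1 came to 1.76 after thinning. NR4A1 came to 2.65 after thinning, but no cord count was left there. That value rests on the 0.5 counts added and does not estimate a ratio. FOS for sham against naïve blood moved from 0.91 to 0.50 after thinning. No paired analysis was possible because each condition had 1 library, and no replicate could be left out. With 65 T-like and 15 basophil or mast-like cord cells, single cells carry weight in every cord value.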
